A study of Mus musculus with 4 samples.

Results

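The small leucine-rich proteoglycans are secreted matrix proteins built around a solenoid of leucine-rich repeats. The group described here holds 10 of their genes, chosen by name from a table of 32868 gene names: Dcn, Bgn, Aspn, Lum, Fmod, Prelp, Kera, Omd, Ogn and Podn. Each had a single row in the files. RNA was sequenced from tibialis anterior, the fast-twitch muscle along the shin, of C57BL/6 mice at postnatal day 21. The Het group had the genotype Nf1flox/+/Myf5+ and the Nf1-KO group Nf1flox/flox/Myf5+, with 2 libraries in each. Both groups thus share the label Myf5+ and carry at least 1 floxed copy of Nf1, and no wild-type muscle stands beside them. What the Myf5 allele is, the labels do not spell out. In the published model of this kind, Cre recombinase is driven from Myf5 in muscle precursors, so a whole-muscle library also holds cells in which Nf1 was not targeted. The labels do not say whether the libraries came from separate animals, and the p-values then measure only the spread between these libraries.

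In connective tissue these proteoglycans coat collagen fibrils and set their diameter and spacing. Several also bind growth factors of the TGF-beta family or receptors at the cell surface. Most carry chains of chondroitin, dermatan or keratan sulfate. In skeletal muscle they are made mainly by fibroblasts of the endomysium and perimysium and by tendon cells, and biglycan also binds parts of the dystrophin complex. By sequence the family falls into classes. Decorin, biglycan and asporin are class I. Lumican, fibromodulin, PRELP, keratocan and osteomodulin are class II, osteoglycin is class III and podocan class V.

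Of the 10 genes, 8 lie beside another member, in 3 clusters whose order was read from RefSeq (GRCm38.p6). Dcn, Lum and Kera follow each other on chromosome 10, with Epyc next. Aspn, Omd and Ogn follow each other on chromosome 13, after Ecm2, and Prelp and Fmod are neighbours on chromosome 1, after Optc. Bgn lies on the X chromosome and Podn on chromosome 4. The 250 bases before the RefSeq transcription start are shown for Bgn, Fmod, Aspn and Ogn, the 4 members with the largest fold changes below. They are RefSeq sequences of the GRCm38.p6 build, while the submitters' processing notes name mm9. Capitals mark matches on either strand to the letters TATAAA, to the E box CANNTG or to the GC box GGGCGG, which overlap in places.

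Bgn, chrX:73483351-73483600 (+ strand): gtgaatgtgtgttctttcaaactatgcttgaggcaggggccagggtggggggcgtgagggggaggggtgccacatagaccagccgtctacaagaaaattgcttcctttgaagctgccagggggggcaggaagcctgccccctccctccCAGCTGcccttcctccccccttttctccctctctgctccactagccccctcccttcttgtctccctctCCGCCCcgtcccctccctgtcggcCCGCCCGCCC

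Fmod, chr1:134037004-134037253 (+ strand): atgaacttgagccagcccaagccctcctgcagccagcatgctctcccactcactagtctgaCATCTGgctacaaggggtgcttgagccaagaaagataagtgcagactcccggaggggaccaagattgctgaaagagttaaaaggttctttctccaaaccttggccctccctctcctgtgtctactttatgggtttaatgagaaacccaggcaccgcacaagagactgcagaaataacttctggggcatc

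Aspn, chr13:49544193-49544442 (+ strand): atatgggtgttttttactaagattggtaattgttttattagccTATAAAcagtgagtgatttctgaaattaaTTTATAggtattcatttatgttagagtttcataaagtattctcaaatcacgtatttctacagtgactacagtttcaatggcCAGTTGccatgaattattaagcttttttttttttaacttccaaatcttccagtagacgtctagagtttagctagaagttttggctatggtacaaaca

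Ogn, chr13:49607765-49608014 (+ strand): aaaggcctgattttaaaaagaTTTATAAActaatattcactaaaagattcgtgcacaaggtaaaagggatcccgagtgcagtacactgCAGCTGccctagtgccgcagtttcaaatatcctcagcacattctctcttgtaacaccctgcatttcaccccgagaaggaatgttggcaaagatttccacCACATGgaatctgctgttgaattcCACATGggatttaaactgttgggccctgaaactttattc

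A RefSeq window of 300 bases (250 before and 50 after the start) was held for 8 of the 10 members, all but Dcn and Lum. TATAAA was found in the windows of 2 members, Aspn and Ogn, against 13.6% of 32851 windows of that length in the table. The E box letters CANNTG were in 6 of the 8 against 72.3%, the GC box GGGCGG in 2 (Bgn and Podn) against 35.7%, and the AP-1 letters TGANTCA in 0 against 7.81%. GC content was 63.7% in the Bgn window, 51% in Fmod, 42.3% in Ogn and 31% in Aspn, and the median window held 52.7%. So the 4 windows shared none of the letters searched apart from the E box, which each of them held. These are matches of letters in a window, not sites shown to be bound.

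Levels are given as the authors deposited them. No unit is named for them, and they are read here as RPKM, reads per kilobase of gene scaled to the size of the library. The deposited values summed to between 532315 and 547144 per library. Replicates were close: over 4827 genes at 5 RPKM or more, the coefficient of variation had a median of 2.02% for Het and 1.91% for Nf1-KO. No batch is named in the labels, so none could be compared. A gene entered the limma test, on log2(scaled RPKM + 1), if it reached 0.5 RPKM in 2 or more libraries, and a gene was called at an adjusted p (Benjamini-Hochberg over all 10690 tested genes) under 0.05. This pseudocount of 1 makes the fold changes of low genes smaller than they were. Nf1, the gene targeted, held 1.09 and 1.01 RPKM in Het and 0.89 and 0.85 in Nf1-KO. The groups were apart, and transcript remained. Its log2 fold change was -0.18 (limma adjusted p 0.041), and -0.33 with a pseudocount of 0.1 (limma adjusted p 0.045). In the authors' deposited table it was -0.38, with an adjusted p of 0.0026 there. Without either Het or either Nf1-KO library in turn, the log2 fold change ran from -0.15 to -0.21, and Nf1 was not called. Muscle fibre markers were abundant throughout, with Acta1 (skeletal alpha-actin) between 12305 and 15930 RPKM and Tnnt3 between 10575 and 12184.

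Most of the family rose in Nf1-KO muscle, by unequal amounts. Of the 10 genes, 8 passed the filter on low values, and 6 of those rose: Dcn, Bgn, Aspn, Lum, Fmod and Ogn. None fell, by limma at an adjusted or an unadjusted p under 0.05 (0 lower at either, and 6 higher at either). Of all tested genes 50.3% were called, 24.9% as higher and 25.4% as lower, so a call in itself was common, and 75% of the tested members were called higher. The median log2 fold change of the 8 was 0.40, against 0.00044 over all tested genes. Both Nf1-KO libraries lay above both Het libraries in each of the 8 tested members as deposited, where 49.8% of tested genes did so, and in 7 of the 8 after scaling, where 38.2% did. The members were chosen with earlier results of these data known, so these comparisons with all tested genes are descriptions and not tests. In bulk tissue, more cells of a type and more RNA per cell cannot be told apart.

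**Figure D1:**
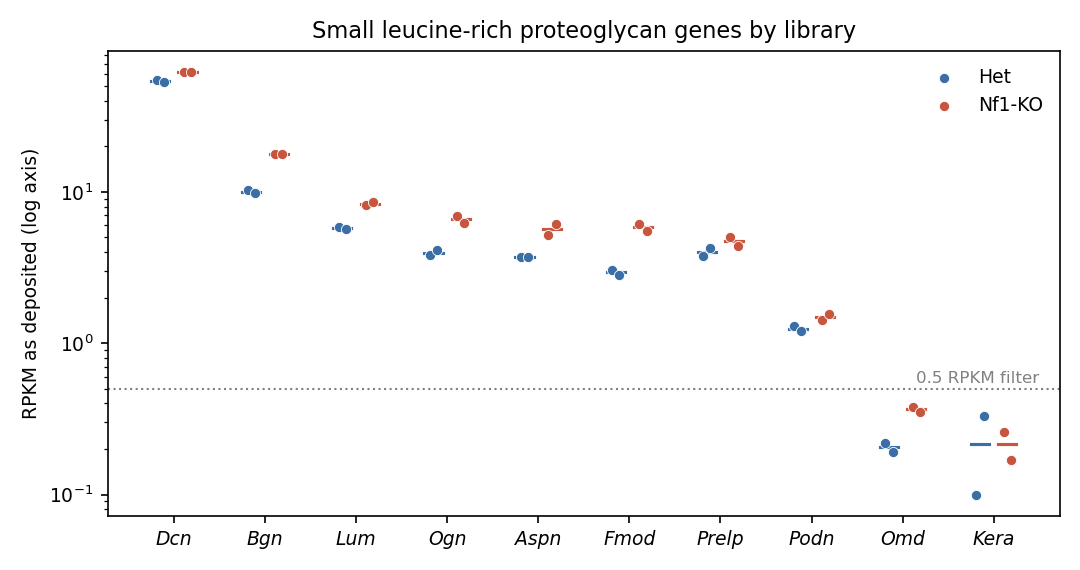
RPKM as deposited (log axis) of the 10 genes, ordered by mean level. Points are libraries (2 Het, 2 Nf1-KO), short lines group means, and the dotted line the 0.5 RPKM of the filter. Both Nf1-KO points lie above both Het points for every gene but Kera, whose points are interleaved.

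Decorin, the most abundant member, binds collagen fibrils and sequesters TGF-beta. Dcn stood at 54.9 and 53.0 RPKM in Het and 62.1 and 61.9 RPKM in Nf1-KO. The groups did not overlap, but the step was small beside the level, with a log2 fold change of 0.10 (standard error 0.026, limma adjusted p 0.018). It was the member whose call was least firm. Without Het replicate 2 it was 0.076 on the log2 scale, with a limma adjusted p of 0.086. With values as deposited and not scaled it was 0.20, and the median of all tested genes was then 0.07. It also lost its call without a filter or without a variance trend (limma adjusted p 0.054 and 0.080).

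Biglycan is decorin's closest relative and also interacts with the dystrophin complex and with the receptor kinase MuSK at the neuromuscular junction. For Bgn, the Het libraries held 10.3 and 9.76 RPKM, and both Nf1-KO libraries stood at 17.8. The Nf1-KO values lay far above those of Het. Bgn rose from 10.04 ± 0.40 to 17.8 ± 0.014 RPKM (SD, n = 2), by 0.68 on the log2 scale (standard error 0.038, limma adjusted p 2.9e-05), the smallest adjusted p of the family. The group means differed by 7.79 RPKM for Bgn and by 8.0 RPKM for Dcn, although Dcn was over 5 times as abundant in Het. Of the difference in the summed RPKM of the family, Dcn made up 29.7% and Bgn 28.9%. These differences and shares are of values as deposited. In the test, values were divided by factors of 0.968 and 0.967 for Het and 1.032 and 1.035 for Nf1-KO. Such scaling lowers both differences, that of the more abundant Dcn by more. The order of the 2 genes given here is therefore only that of unscaled values.

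Asporin, named for its run of aspartates, lacks a glycosaminoglycan chain and competes with decorin for collagen. Aspn was 3.7 RPKM in both Het libraries and rose to 5.2 and 6.12 RPKM with Nf1-KO. The groups did not overlap, though the Nf1-KO libraries differed from each other by more than those of the other called members did in proportion. Its log2 fold change was 0.42 (standard error 0.070, limma adjusted p 0.0032). An exon of Aspn overlaps one of Cenpp on the opposite strand, and reads of the overlap cannot be told apart without strand. Cenpp itself was low, at 0.70 and 0.48 RPKM in Het and 0.56 and 0.63 in Nf1-KO, and its groups overlapped.

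Fibromodulin and lumican are class II keratan sulfate proteoglycans that bind the same region of type I collagen and act at successive stages of fibril growth. Fmod showed the largest fold change of the family. It held 3.04 and 2.84 RPKM in Het and 6.14 and 5.53 RPKM in Nf1-KO, and the lowest Nf1-KO library was well above the highest Het library. The log2 fold change was 0.72 (standard error 0.061, limma adjusted p 1.8e-04). Lum was the more abundant of the pair, with 5.9 and 5.69 RPKM in Het and 8.24 and 8.51 in Nf1-KO. Its groups were separated too, with a log2 fold change of 0.38 (standard error 0.042, limma adjusted p 5.2e-04).

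PRELP anchors basement membranes to the underlying collagen through perlecan. Prelp did not pass the threshold. It held 3.77 and 4.24 RPKM in Het and 5.03 and 4.41 in Nf1-KO, and after scaling its groups overlapped. The log2 fold change was 0.12 with a 95% confidence interval of -0.064 to 0.29 (limma adjusted p 0.24), which does not show that it was equal in both groups. Prelp shares exonic sequence with an antisense transcript, Gm15851, so reads of both may be in its value.

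The remaining class II members were too low to test. Osteomodulin, also called osteoadherin, is a keratan sulfate proteoglycan of mineralised bone. Omd held 0.22 and 0.19 RPKM in Het and 0.38 and 0.35 in Nf1-KO, and both Nf1-KO libraries were higher. Keratocan is a proteoglycan of cornea and tendon. Kera held 0.1 and 0.33 RPKM in Het and 0.26 and 0.17 in Nf1-KO, with the same mean of 0.215 in each group. The authors' deposited table gives a mean normalized count of 23.2 for Omd and 19.8 for Kera, so few reads stand behind either. With no filter on low values Omd had a log2 fold change of 0.16 and a limma adjusted p of 0.033, and Kera -0.013 and 0.952.

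Osteoglycin, or mimecan, is the class III member and is secreted by bone, muscle and vessel wall. Ogn rose from 3.84 and 4.1 RPKM in Het to 6.96 and 6.24 RPKM in Nf1-KO, again without overlap. Its log2 fold change was 0.53 (standard error 0.062, limma adjusted p 6.7e-04). Podocan, a class V member found in vessel wall and kidney, was lower in level, at 1.3 and 1.2 RPKM in Het and 1.42 and 1.55 in Nf1-KO. Its log2 fold change of 0.089 did not pass the threshold (95% confidence interval -0.056 to 0.23, limma adjusted p 0.26). In level the tested members ran, by mean RPKM over the 4 libraries, from Dcn (57.98) and Bgn (13.9) through Lum, Ogn, Aspn, Fmod and Prelp to Podn (1.37).

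**Figure D2:**
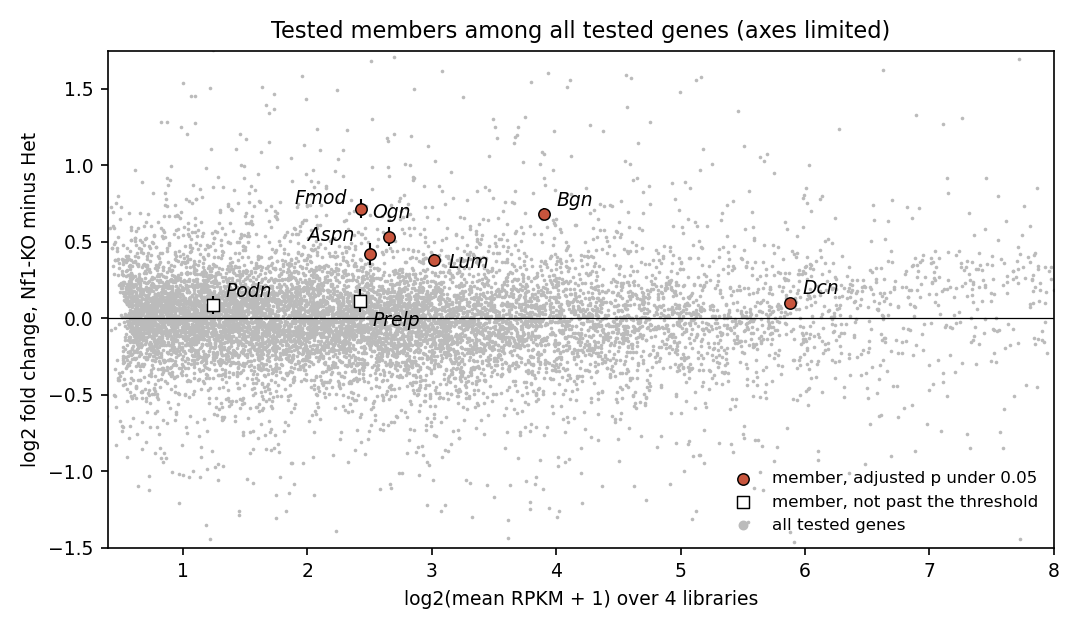
Log2 fold change (Nf1-KO minus Het, on log2(scaled RPKM + 1)) against log2(mean RPKM + 1) for all tested genes (grey) and the 8 tested members, with bars of 1 standard error. The axes are limited and leave out the most extreme genes. Fmod, Bgn, Ogn, Aspn and Lum lie between 0.38 and 0.72, while Dcn, Prelp and Podn lie near 0.1.

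The clusters did not move as blocks of equal size. On chromosome 10, Lum rose by 0.38 and its neighbour Dcn by 0.10 on the log2 scale. On chromosome 1, Fmod rose by 0.72 and its neighbour Prelp had a fold change of 0.12 on that scale. On chromosome 13, Aspn and Ogn rose by 0.42 and 0.53 on it, while Ecm2, the family relative before Aspn, held 2.1 and 2.09 RPKM in Het and 1.79 and 2.01 in Nf1-KO. Its log2 fold change was -0.16 (limma adjusted p 0.067). Whether neighbours differed in their response was not tested.

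The make-up of the family by RPKM differed between the groups. The summed RPKM of the 10 genes was 87.1 and 85.1 in Het and 113.6 and 112.6 in Nf1-KO, a ratio of group means of 1.31. Without Dcn the ratio was 1.59. Both ratios are of values as deposited, and scaling the libraries would lower both. Dcn made up 63.1% and 62.3% of the sum in Het and 54.7% and 55.0% in Nf1-KO, and Bgn 11.7% and 15.8% of the group means. Within each library, Bgn stood to Dcn as 0.188 and 0.184 in Het and as 0.287 and 0.288 in Nf1-KO, a ratio of RPKM.

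Pairs of members were also compared within libraries on the log2(scaled RPKM + 1) scale, where 4 pairs were examined. The Bgn minus Dcn difference was higher in Nf1-KO by 0.58, Fmod minus Lum by 0.34 and Aspn minus Dcn by 0.32, each without overlap between groups. Omd minus Ogn was lower by 0.37 (Nf1-KO minus Het -0.37), but this difference was -0.085 with a pseudocount of 0.1, and the RPKM ratios of Omd to Ogn overlapped (0.057 and 0.046 in Het, 0.055 and 0.056 in Nf1-KO). The Fmod minus Lum difference was 0.25 without Nf1-KO replicate 1. An exact two-sided permutation test over 2 against 2 libraries gave 0.333 for each pair, the smallest p it allows, so no pair could pass a threshold, adjusted over the pairs or not.

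**Figure D3:**
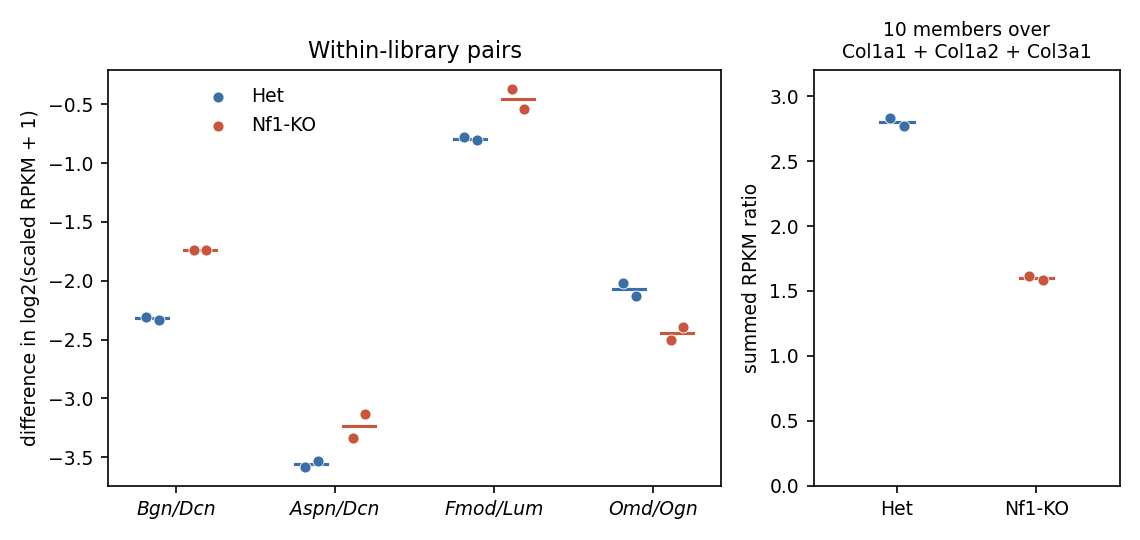
Left, the within-library difference in log2(scaled RPKM + 1) between 2 members for 4 pairs. Right, the summed RPKM of the 10 members divided by that of Col1a1, Col1a2 and Col3a1. Points are libraries and short lines group means; the summed ratio is near 2.8 in both Het libraries and near 1.6 in both Nf1-KO libraries.

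Of the fibrillar collagens that these proteins bind, Col1a1 and Col1a2 changed by more than any member did on the log2 scale. Col3a1 changed by about as much as Lum (1.45-fold for each, as a ratio of mean RPKM). Col11a1, with means of 0.025 RPKM in Het and 0.68 in Nf1-KO, had a ratio of 27.2. Its log2 fold change, with the pseudocount of 1, was 0.69, under the 0.72 of Fmod. The summed RPKM of Col1a1, Col1a2 and Col3a1, the chains of collagens I and III, was 30.8 and 30.7 in Het and 70.4 and 71.1 in Nf1-KO, a ratio of 2.30. The family's sum was thus 2.83 and 2.77 times the collagen sum in Het and 1.61 and 1.58 times in Nf1-KO, and the groups were far apart. Of 13 collagen genes listed as partners, 12 were tested, 7 rose and 0 fell (1 lower at an unadjusted p under 0.05, and 1 by limma with a pseudocount of 0.1 or without a variance trend). Their median log2 fold change was 0.42, beside 0.40 for the members. Among all tested genes 24.9% rose and 25.4% fell. Col1a1 rose by 1.57, Col12a1 by 1.45 and Col1a2 by 1.06 on the log2 scale. Col12a1, a fibril-associated collagen, held 0.12 RPKM in each Het library and 2.19 and 2.1 in the Nf1-KO libraries. It and Col11a1 passed the filter through the Nf1-KO libraries alone. The chains of type VI collagen, Col6a1, Col6a2 and Col6a3, which biglycan and decorin also bind, did not pass (limma adjusted p 0.155, 0.097 and 0.053).

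Enzymes that build the glycosaminoglycan chains were mostly not called. Of 21 genes for chondroitin and dermatan sulfate synthesis, 16 were tested, 0 rose (1 at an unadjusted p under 0.05, and 1 by limma with unscaled values, with a filter of 1 RPKM or without a variance trend) and 4 fell by limma, with a median log2 fold change of -0.07. As 25.4% of all tested genes fell, 4 of 16 is near that background. Those that fell were Fam20b, the kinase that phosphorylates xylose in the linker (log2 fold change -0.44), Csgalnact2, which adds the first N-acetylgalactosamine (-0.33), B3gat3, which completes the linker (-0.26), and Chpf2, a chain polymerising factor (-0.21). Csgalnact2 was the most abundant of the list, at 12.4 and 12.3 RPKM in Het and 10.7 and 9.82 in Nf1-KO. Of 5 keratan sulfate genes only B4galt4 could be tested, and it did not pass (log2 fold change 0.12, limma adjusted p 0.354). B3gnt7 and Chst5 were listed at 0 in every library.

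**Figure D4:**
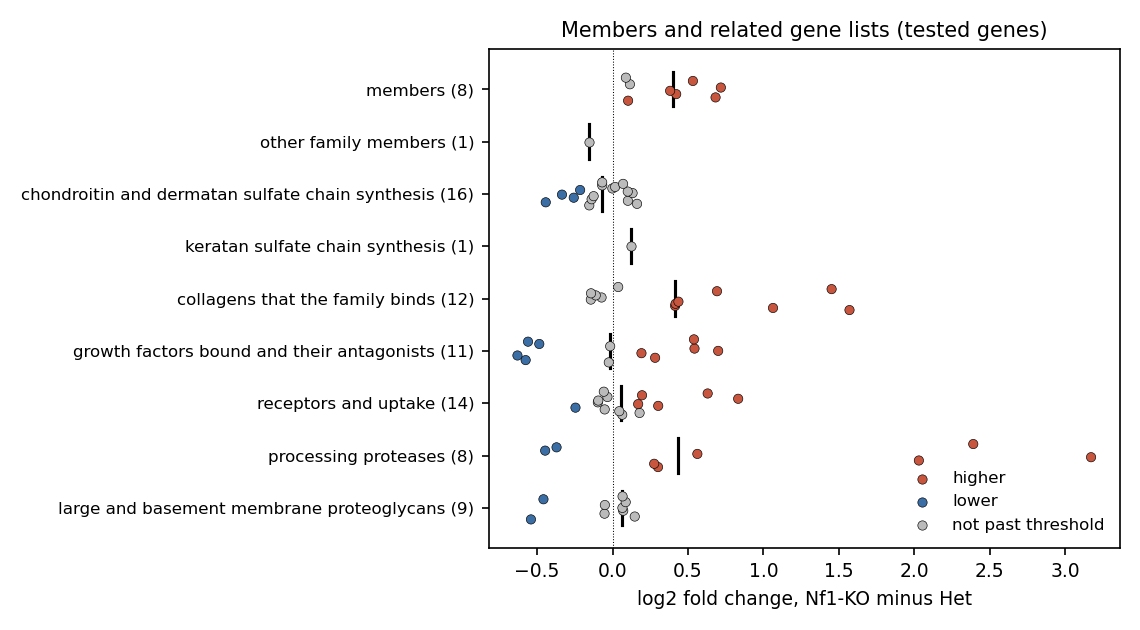
Log2 fold change (Nf1-KO minus Het) of each tested gene of the family and of 8 related lists, with the number tested in brackets. Red and blue points passed a limma adjusted p of 0.05 upwards and downwards, grey points did not, and black bars are list medians, 0.40 for the members and -0.07 for chondroitin and dermatan sulfate synthesis.

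Proteoglycans outside the family were mostly not called, where 50.3% of all tested genes were. Of 13 large, basement membrane and cell-surface ones, 9 were tested, 0 rose by limma (1 at an unadjusted p under 0.05, 2 with unscaled values) and 2 fell. These were Hspg2, the basement membrane perlecan, and Gpc1, a glypican of the cell surface, with log2 fold changes of -0.54 and -0.46. Gpc1 went from 102.5 and 99.5 RPKM in Het to 78.3 and 78.1 in Nf1-KO. Ncan was listed at 0 in every library. Of 8 further members of the small leucine-rich family only Ecm2 passed the filter. The others were at or under 0.41 RPKM in every library. Tsku, a class IV member, held 0.20 and 0.16 RPKM in Het and 0.41 and 0.34 in Nf1-KO. Chadl went the other way, with 0.37 and 0.31 RPKM in Het and 0.20 and 0.24 in Nf1-KO. Of the 8, 3 were higher in both Nf1-KO libraries as deposited.

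Growth factors that decorin, biglycan, fibromodulin or asporin can bind, with their antagonists, moved in both directions. So did all tested genes, of which 24.9% rose and 25.4% fell. Of 14 listed, 11 were tested, 5 rose (Tgfb3, Bmp4, Bmp6, Ctgf and Fst) and 4 fell (Tgfb2, Mstn, Pdgfa and Pdgfb), with a median log2 fold change of -0.02. Fst passed the filter on low values through the Nf1-KO libraries alone. Without either Nf1-KO library in turn, the count of 5 became 3. Bmp6 rose by 0.70, Mstn, which encodes the muscle growth inhibitor myostatin, fell by 0.63 and Tgfb2 fell by 0.58 on the log2 scale. By its mean over the 4 libraries Pdgfa was the most abundant, ahead of Tgfb3, which was higher than Pdgfa in both Nf1-KO libraries. Pdgfa held 17.0 and 16.9 RPKM in Het and 12.1 and 13.2 in Nf1-KO. Wisp1 was listed at 0 in every library.

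Of 16 receptors and membrane partners, 14 were tested, 5 rose and 1 fell, with a median of 0.05. Counted in both directions, calls were no more common here than among all tested genes, of which 50.3% were called. Of all tested genes 24.9% rose, and the 5 of 14 here are a larger share. Tgfbr2, the type II TGF-beta receptor, rose by 0.83 and Musk, the kinase that biglycan binds, by 0.63 on the log2 scale. Tlr4, an innate receptor for soluble biglycan, rose by 0.30 at low levels (0.60 and 0.34 RPKM in Het, 0.76 and 0.95 in Nf1-KO). Lrp1, an endocytic receptor for decorin, also rose, and Kdr fell. Without Nf1-KO replicate 2 the count of 5 became 3, as it did without a filter. Sgca, the most abundant of the list, did not pass (log2 fold change -0.03, limma adjusted p 0.231).

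Proteases that cleave these core proteins or collagen, with the enhancer Pcolce, held the largest single changes of the related lists. Of 14 listed, 8 were tested, 6 rose and 2 fell (Adamts1 and Adamts5), with a median of 0.43. Among all tested genes 24.9% rose and 25.4% fell. Mmp9 and Mmp13 passed the filter on low values through the Nf1-KO libraries alone, and 3 rose where every library had to reach 1 RPKM. Mmp13, a collagenase, held 0.01 and 0.06 RPKM in Het and 8.48 and 8.75 in Nf1-KO. Ctsk, the collagen-degrading cathepsin of osteoclasts, rose by 2.39 and Mmp9, a gelatinase, by 2.03 on the log2 scale. Pcolce, the most abundant of the list by its mean over the 4 libraries though not in Nf1-KO, where Ctsk was higher, rose by 0.30 on that scale. Of the genes named from these lists, exons of Chadl, Fam20b, Chpf2, B3gnt7, Col3a1, Tgfb2, Tgfb3, Bmp4, Bmp6, Pdgfa, Fst, Pcolce and Gpc1 overlap those of another gene in the annotation, so their values can hold reads of both.

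Markers of other cell types moved between the groups as well. The sums of markers here and in the next paragraph are of RPKM as deposited. Without scaling, the median log2 fold change of all tested genes was 0.07, so a small step up in a sum need not be a rise. Of 12 fibroblast and fibro-adipogenic progenitor genes, 10 were tested, 3 rose and 3 fell, and their summed RPKM was 127.6 to 130.9 in Het and 147.0 to 147.9 in Nf1-KO. Gsn and Ly6a, the most abundant, rose (log2 fold changes 0.19 and 0.53), as did Pdgfra (0.35). Col15a1, Cd34 and Thy1 fell (-0.67, -0.62 and -0.61). The median of the 10 tested was 0.04. Of 7 tendon cell genes 3 were tested, of which Thbs4 and Scx fell by 1.06 and 0.45 and Chodl rose by 0.18 on the log2 scale. The tendon sum was 14.3 to 14.5 RPKM in Het and 8.88 to 9.11 in Nf1-KO. Most of that step was Thbs4, at 9.69 and 9.73 RPKM in Het and 4.47 and 4.41 in Nf1-KO. Of the tendon genes too low to test, Comp and Cilp2 were higher in both Nf1-KO libraries, and the groups of Tnmd and Mkx overlapped.

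Of 8 osteoblast and osteocyte genes, 3 were tested and all 3 rose (Ibsp, Bglap and Alpl), and the sum was 4.95 to 5.11 RPKM in Het and 16.0 to 16.8 in Nf1-KO. Ibsp, the bone sialoprotein gene, held 0.01 and 0.02 RPKM in Het and 8.65 and 9.07 in Nf1-KO, and like Bglap it passed the filter through the Nf1-KO libraries alone. Sp7, a factor of osteoblasts, was listed at 0 in both Het libraries and held 0.13 and 0.16 RPKM in Nf1-KO. Phex, too low to test, went the other way, at 0.14 RPKM in both Het libraries and 0.05 and 0.08 in Nf1-KO. Of the 8 genes, 7 were higher in both Nf1-KO libraries as deposited. All 7 Schwann cell genes rose (some of them, such as Sox10 and S100b, passed the filter through the Nf1-KO libraries alone), with sums of 16.0 to 16.4 RPKM in Het and 35.1 to 36.8 in Nf1-KO. Of 8 leukocyte genes 4 were tested and 3 rose, with sums of 10.04 to 10.16 and 29.4 to 29.5 RPKM, most of it Lyz2; Adgre1 was listed at 0 in every library. Of 6 chondrocyte genes 2 were tested, Sox9 did not pass and Col9a1 fell, and Matn1 and Matn3 were listed at 0. The sums of 7 smooth muscle and pericyte genes were 109.6 to 111.3 RPKM in Het and 129.0 to 130.4 in Nf1-KO (2 of 6 tested rose and 1 fell), and those of 6 endothelial genes 71.7 to 72.1 and 76.6 to 77.7 RPKM (2 rose and 1 fell). Of 6 satellite cell genes 4 were tested and 2 rose, of 5 adipocyte genes 2 were tested and 1 rose, and of 8 muscle fibre genes 7 fell and Des rose. The part of these cells in the values of the proteoglycan genes was not tested.

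The authors' deposited table lists all 10 members and called 5 of them higher at an adjusted p under 0.05, where it called 15.0% of its 13985 genes higher. In the authors' deposited table the log2 fold changes were 0.89 for Fmod, 0.73 for Bgn, 0.62 for Ogn, 0.51 for Aspn and 0.43 for Lum. The authors' deposited table gave 0.094 for Dcn with an adjusted p of 0.064, so that Dcn was not called there. Prelp, Podn, Omd and Kera were not called in the authors' deposited table either, and Omd, at 0.74 with a standard error of 0.59, had the widest uncertainty of the genes with a raised value. The depth behind these, as the normalized count averaged over libraries in the authors' deposited table, was 5720 for Dcn, 2236 for Bgn, between 518 (Aspn) and 744 (Prelp) for Aspn, Lum, Fmod, Ogn and Prelp, and 267 for Podn.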

How the data were processed

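RNA of 4 libraries (2 Het, 2 Nf1-KO, grouped by their titles) was measured. The authors deposited 1 value per gene and library, rounded to 2 decimals. The unit was read from the values as RPKM, since the files name none. The submitters' processing notes name STAR 2.4.2a, DESeq2 and the mm9 build, with no role for each. The annotation, the counting program and its use of strand are not given in the sources used here. The authors also deposited a comparison table. Per the file headers it holds a signal (mean count divided by size factors), a log2 fold change with its standard error, a score (their ratio) and a p-value, raw and adjusted.

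Of 34682 rows, 33 named by a number were left out, and of rows marked as copies of a name the one with the highest mean was kept. Library scaling used trimmed means of log ratios without weights (trims of 30% for ratios and 5% for abundances). Scaled values were tested with limma 3.58.1 in R 4.3.3 with a variance trend, a pseudocount of 1 RPKM and no covariate, and the code was tested on simulated data. Means and SD are of deposited RPKM. Since RPKM are no counts, no count model was run and no counting intervals are given. Rows listed at 0 in every library (44.7%) include genes every cell uses, so 0 is only a listed value. Exon overlaps come from GENCODE M21 and promoter windows from RefSeq (GRCm38.p6).

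The members and lists were chosen with earlier results of these data known. Named were all 10 members, and from each related list up to 3 called genes with the largest change, the most abundant gene and those needed by a count of 5 or fewer. From marker lists, genes at 0 and up to 2 of the most abundant were named. Chodl, Col15a1, Cd34, Thy1, Pdgfra, Comp, Cilp2, Tnmd, Mkx, Sox10 and S100b were named after their values were seen. So were Col11a1, Bglap, Sp7, Phex, Tnnt3, Tsku, Chadl, Des and the type VI collagens. Not every gene that a count covers is reported here. Alternatives were no scaling, median scaling, a pseudocount of 0.1, no filter, 1 RPKM in every library, no trend, summed copies, the replicate number as a block, and leaving out each library.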

Additional observations from a re-analysis of the deposited data

How the results depend on the processing

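Over 12 alternative settings the members called higher numbered 5 or 6, and none was called lower. Bgn, Aspn, Lum, Fmod and Ogn were called higher in all 12, and Prelp and Podn in 0 of 12. Dcn kept its direction and was called in 9 of 12. It lost its call without a filter (0.091, where Omd entered in its place), without a variance trend (0.10) and without Het replicate 2 (0.076); its limma adjusted p ran from 0.0014 to 0.086, and its log2 fold change when each library was left out from 0.076 to 0.12. The cause was not tested. Unscaled values raised the median log2 fold change of all tested genes to 0.07 and the share of called genes that were higher from 49.5% to 66.6%. Nf1 lost its call unscaled (-0.13) and without a filter (-0.18), and was below the filter of 1 RPKM. No pairing by replicate number was seen, as the deviations of libraries with one number correlated at -0.018 over genes. In the fit with that number as a block, the 6 members stayed called and Nf1 (-0.18, limma adjusted p 0.054) was not. Of 404 values under these settings, 372 kept their sign and call, stayed within their spread or, for counts, stayed within 1.5 times, 10 lost a call, all of Dcn or Nf1, and 22 moved, which were counts in the related lists and values of member pairs. The p-values rest on 2 libraries a group and on limma's variance estimate pooled over genes. Omd and Kera lay below the filter in every library, with few reads behind their values.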
